A study of Mus musculus with 36 samples.

Results

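The genotype difference in the response at 6 h asks, for each gene, whether LGP2-/- dendritic cells answered a RIG-I agonist RNA more or less strongly than wild-type cells after 6 h. It was taken as (KO PAMP minus KO mock) minus (WT PAMP minus WT mock) on the log2 scale, so a positive value means a larger rise, or a smaller fall, in KO cells. It rests on 12 of the 36 libraries and on the 11853 of 24127 genes whose mean normalized count over all libraries was 10 or more. The cells were bone-marrow dendritic cells grown in GM-CSF and purified on CD11c. The 4 groups at 6 h, with 3 libraries each, were LGP2-/- (Dhx58-/-) cells transfected with 20 ng PAMP RNA (KO PAMP), LGP2-/- cells collected at the same time without it (KO mock), C57BL/6J wild-type cells given the RNA (WT PAMP) and wild-type cells without it (WT mock). The labels call the cells without PAMP RNA both mock-treated and untreated, so whether they received transfection reagent is not settled by them. Matching groups were taken at 1 and 3 h. PAMP RNA is the poly-U/UC RNA of hepatitis C virus. The replicates were plated as biological triplicates, and the labels do not say whether they came from separate mice, so p-values measure the spread between these cultures.

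LGP2, the product of Dhx58, is a RIG-I-like helicase that binds RNA but lacks the signalling domains (CARDs) by which RIG-I and MDA5 act. It is known to modulate signalling by both. RIG-I, once bound to RNA, signals through MAVS to the IRF and NF-kB transcription factors, which switch on interferon and cytokine genes. Secreted type I interferon then acts through its receptor to induce a second wave of interferon-stimulated genes. In dendritic cells the same signals drive maturation and a shift in metabolism.

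At 6 h, 1243 genes differed between the genotypes in their response (10.5% of the genes tested; limma with a mean-variance trend, Benjamini-Hochberg adjusted p under 0.05). The difference was higher in KO cells for 791 genes (6.67%) and lower for 452 (3.81%). Most differences were small, with a median of 0.40 among the genes called higher and -0.49 among those called lower, and 76 called genes passed 1 log2 unit in size, 29 of them higher and 47 lower. Over all genes tested the median was 0.02, with 5th and 95th percentiles of -0.49 and 0.50. The responses themselves were far wider, since 71.7% of the genes were called in the KO response (35.1% rising and 36.5% falling) and 65.4% in the WT response (32.1% rising and 33.3% falling). The shares rising and falling depended on the scaling. Rises were 49.0% of the calls in each response, but 20.2% (KO) and 20.8% (WT) with all libraries set to equal totals. After quantile normalization they were 40.4% (KO) and 40.0% (WT). Normalized library totals ran from 10297148 to 10494569 in KO PAMP cells and 9511224 to 9708651 in WT PAMP cells. They ran from 7318097 to 7478000 in KO mock cells and 7359444 to 7462243 in WT mock cells. The split between higher and lower differences also depended on the scaling. When all libraries were set to equal totals the median of all genes moved by -0.113 and 380 genes were higher against 1249 lower, so 23.3% of the calls were higher in place of 63.6%. After quantile normalization 42.5% were higher (381 genes against 516 lower). Counts of list members under either scaling are to be read against these counts over all genes.

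Among the 791 genes called higher, 719 (90.9%) rose in both genotypes. That these rose more in KO cells follows from how they were called. Another 54 rose in KO cells and were not called in WT cells. The 452 genes called lower were mostly genes that PAMP RNA turned down. Of them, 324 (71.7%) fell in both genotypes, and 90 fell in KO cells while not called in WT cells. The further fall of the 324 in KO cells likewise follows from the call. A change of direction was rare. Dab2, an endocytic adaptor, and Tmed9, a cargo receptor of the early secretory pathway, rose in KO cells and fell in WT cells. The genes Abce1, Bcor, Cbfa2t3, Clk1, Insig1, Kat2a, Kti12, Srebf2 and Trmt5 fell in KO cells and rose in WT cells. All these rises were at most 0.33. Equal totals moved the median gene by -0.371 in the WT response and by -0.485 in the KO response. The rises were smaller than these shifts, so the opposite directions may depend on the scaling. Apart from Kat2a these opposite responses were small; Abce1, a ribosome recycling factor, fell by 0.37 in KO cells and rose by 0.13 in WT cells. Bcor lost its call without KO PAMP replicate 3, and Tmed9 and Trmt5 lost theirs in 3 each of the 12 fits that left out a single library.

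**Figure D1:**
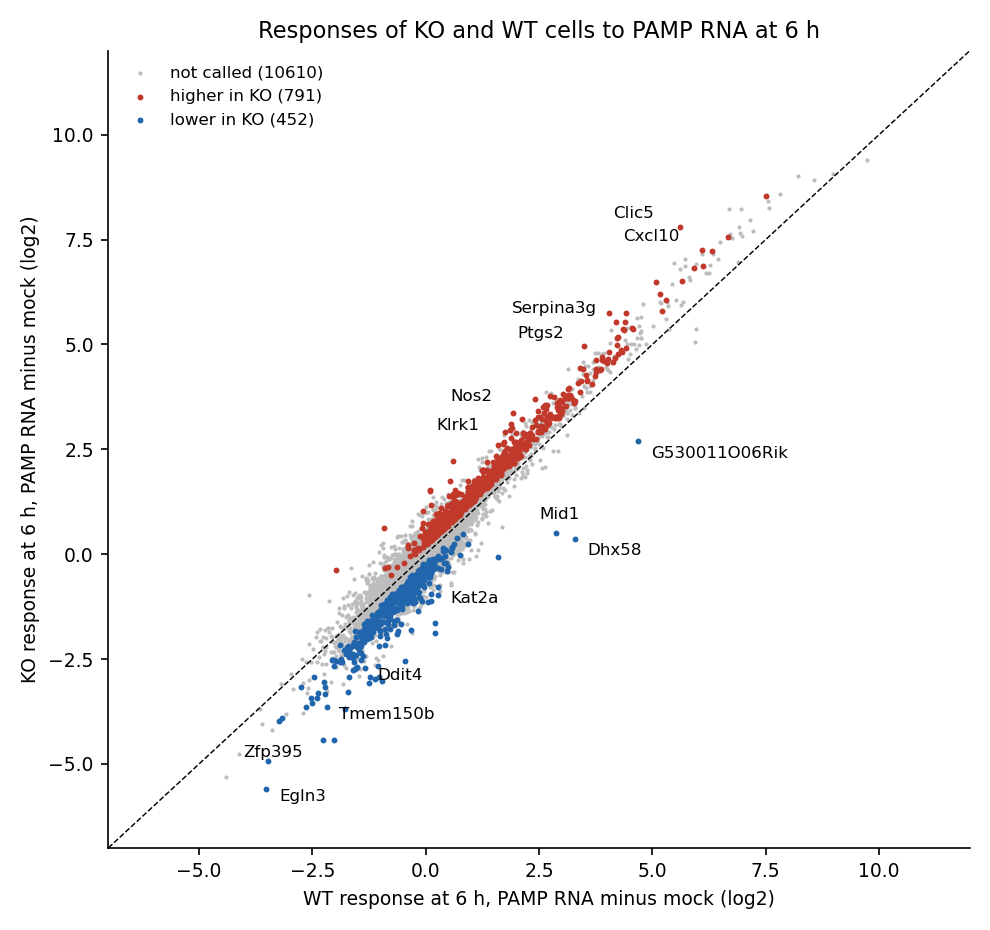
Response to PAMP RNA at 6 h in KO cells (y axis, log2, PAMP minus mock) against that in WT cells (x axis, log2) for the genes tested, with genes called higher in KO in red, those called lower in blue and the rest in grey, and the line of equal response drawn. Most coloured points lie close to the line and on the same side of 0 for both genotypes; Dhx58 and Mid1, with differences of -2.93 and -2.37, lie far from it.

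The difference can equally be read as the KO minus WT gap in PAMP cells less the gap in mock cells, and these comparisons share their libraries. Between the genotypes, 2848 genes (24.0%) differed in PAMP cells and 1309 (11.0%) in mock cells. Of the 791 genes called higher, 484 (61.2%) were higher in KO in PAMP cells and not called in mock cells, 116 (14.7%) were not called in PAMP cells and lower in KO mock cells, and 87 (11%) did both. Of the 452 called lower, 273 (60.4%) were lower in KO in PAMP cells with no call in mock cells, and 88 (19.5%) were higher in KO mock cells with no call in PAMP cells. Most of these calls thus went with a called gap in stimulated cells, and a smaller share with a called gap in mock cells alone.

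The 12 libraries held 7192818 to 8773056 recovered reads and 14730 to 15246 detected genes, and the lowest correlation within a group was 0.990. Replicate 1 of the WT mock group stood apart. In it 26 genes lay at least 1 log2 unit from the mean of the other replicates of its group, against 2 to 8 genes in each of the other 11 libraries. Its interferon-stimulated genes were on average higher, at 8.72 on the log2 scale against 8.30 and 8.35 in the other WT mock libraries, and its hypoxia-inducible genes lower, at 9.81 against 10.4 and 10.4. Without it 614 genes were called higher, 584 of them among the 791, and 306 lower, 284 of them among the 452. Many results that lean on this library, though not all, are given with and without it.

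Dhx58 itself (chr11:100694884-100704271, minus strand) had the most negative difference. It had 807, 985 and 1012 normalized counts in KO PAMP cells and 808, 725 and 634 in KO mock cells, against 3066, 2941 and 3010 in WT PAMP cells and 362, 287 and 273 in WT mock cells. The KO PAMP and KO mock ranges overlapped narrowly, while all WT PAMP libraries lay far above the rest and all WT mock libraries below it. The difference was -2.93 ± 0.19 (SE; limma adjusted p = 3.82e-15). In mock cells KO exceeded WT by 1.23 log2 units. Counts per gene do not separate a deleted exon from the remaining ones, and the library kit did not keep the strand, so these counts do not check the knockout label at the level of the protein. Kat2a, the histone acetyltransferase gene next to Dhx58 (chr11:100704746-100712465, minus strand), had 108, 90.2 and 98.6 counts in KO PAMP cells and 205, 191 and 189 in KO mock cells, against 118, 128 and 132 in WT PAMP cells and 111, 90.4 and 114 in WT mock cells. Only the KO mock libraries stood out, as high. Its difference was -1.24 ± 0.15 (SE; limma adjusted p = 4.7e-08).

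Mid1, which encodes a microtubule-associated ubiquitin ligase on the X chromosome (chrX:169685199-170005736, plus strand), was low in KO cells. It had 18.6, 24.3 and 27.3 counts in KO PAMP cells and 13.5, 13.0 and 23.8 in KO mock cells, against 814, 875 and 857 in WT PAMP cells and 125, 111 and 110 in WT mock cells. Every KO library lay below every WT library, with or without PAMP RNA. The difference was -2.37 ± 0.31 (SE; limma adjusted p = 5.52e-07), and KO was lower than WT by -5.14 log2 units in PAMP cells and by -2.76 in mock cells. G530011O06Rik, which overlaps the span of Mid1 on the opposite strand, showed the same order with 30.6, 25.8 and 24.9 counts in KO PAMP cells and 8.46, 0.864 and 3.52 in KO mock cells, against 1215, 1079 and 1182 in WT PAMP cells and 49.5, 45.7 and 37.7 in WT mock cells. Only the spans of these genes were compared, and the libraries did not keep the strand. Whether reads were shared between them was not examined. The call of G530011O06Rik (-1.98 ± 0.54, SE; limma adjusted p = 0.0108) was lost without KO mock replicate 1.

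**Figure D2:**
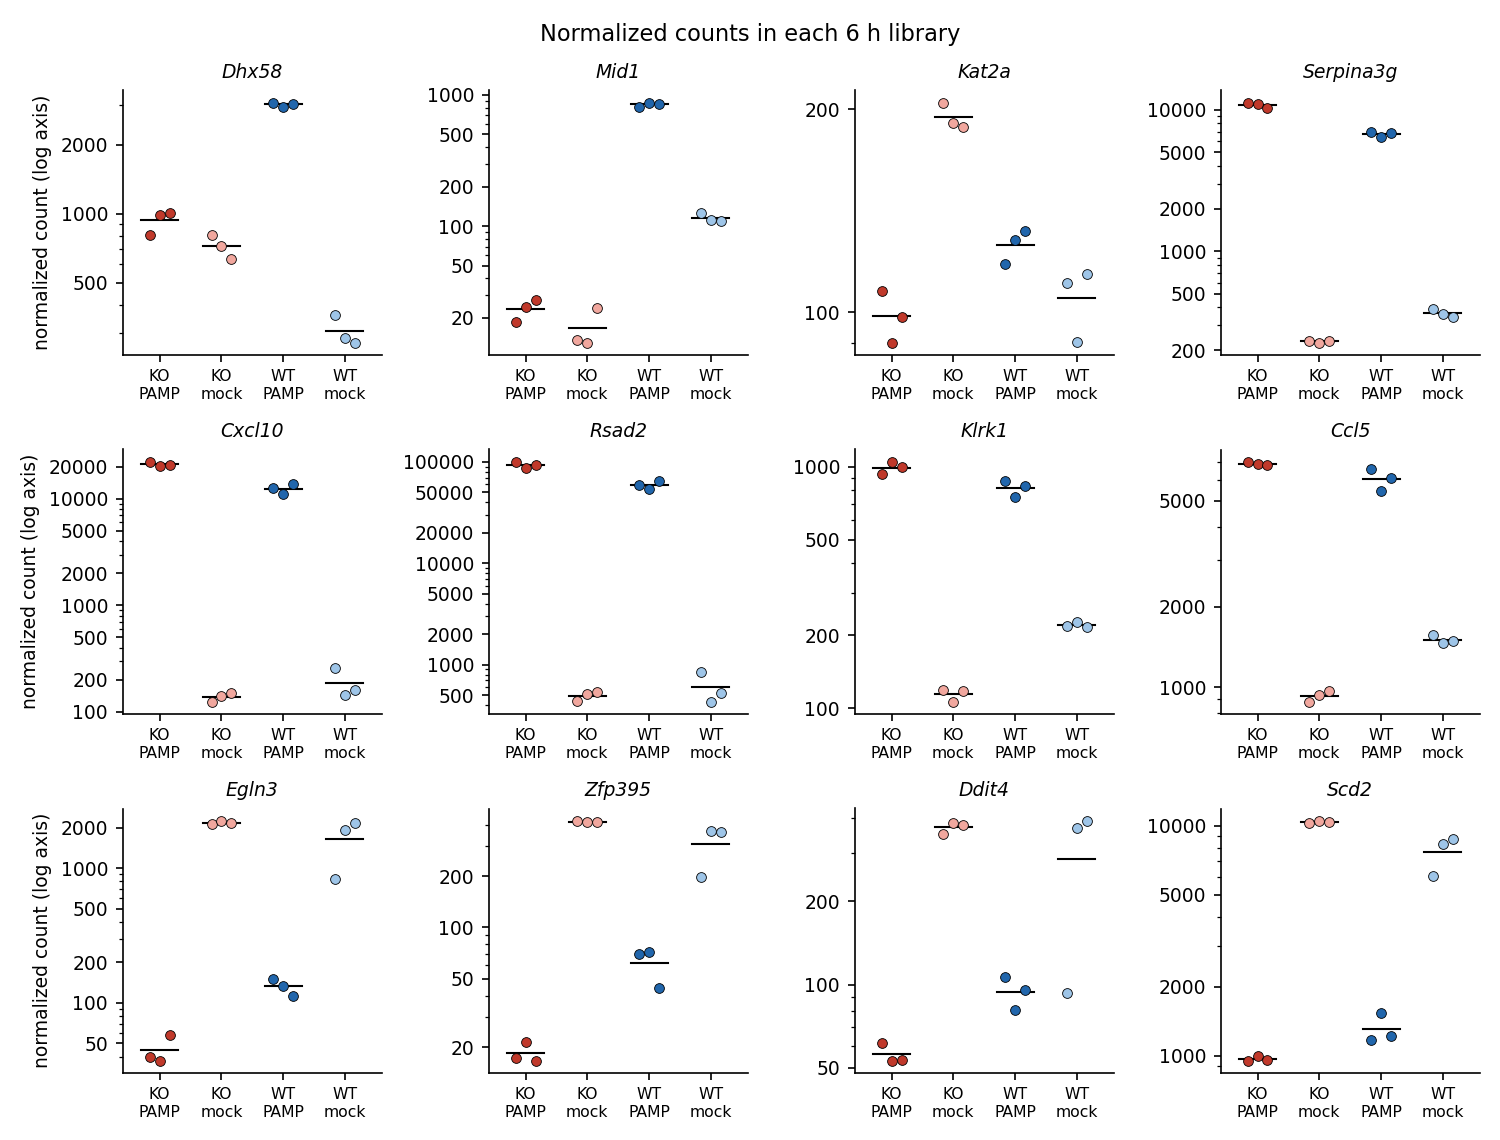
Normalized counts (y axis, log scale) of 12 genes in KO PAMP, KO mock, WT PAMP and WT mock cells at 6 h, with each dot a library (replicates 1 to 3 from left to right) and each line a group mean. Serpina3g, Cxcl10, Rsad2, Klrk1 and Ccl5 were highest in KO PAMP cells, Egln3 and Zfp395 were lowest there, and the lower dot of WT mock replicate 1 is visible for Egln3, Zfp395, Ddit4 and Scd2.

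Of the genes whose response was larger in KO cells, Serpina3g, a cytosolic serine protease inhibitor, was among the most clear-cut (chr12:104236245-104241939, plus strand). It had 11223, 10936 and 10302 counts in KO PAMP cells and 234, 225 and 233 in KO mock cells, against 6941, 6384 and 6886 in WT PAMP cells and 393, 363 and 343 in WT mock cells. KO libraries were all above WT libraries with PAMP RNA and all below them without it. The difference was 1.35 ± 0.11 (SE; limma adjusted p = 7.29e-13). Klrk1, the NKG2D receptor gene, had 931, 1054 and 999 counts in KO PAMP cells and 119, 106 and 117 in KO mock cells, against 874, 754 and 838 in WT PAMP cells and 220, 228 and 216 in WT mock cells. Here too the ranges did not overlap in either condition, and the gap in mock cells (-0.95) was the larger. Its difference was 1.23 ± 0.14 (SE; limma adjusted p = 1.24e-08). Ctla2b (1.29), an inhibitor of cysteine proteases, and Wdr86 (1.16) also kept their calls whichever library was left out.

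The inflammatory enzymes among the leading genes were noisier. Ptgs2, the inducible cyclooxygenase, had 724, 657 and 657 counts in KO PAMP cells and 22.8, 16.4 and 23.8 in KO mock cells, against 403, 327 and 377 in WT PAMP cells and 26.0, 28.0 and 44.0 in WT mock cells. Nos2, the inducible nitric oxide synthase, had 366, 296 and 331 in KO PAMP cells and 31.3, 32.0 and 30.8 in KO mock cells, against 180, 217 and 118 in WT PAMP cells and 26.0, 46.6 and 67.3 in WT mock cells. Ch25h, which makes 25-hydroxycholesterol, had 1491, 1253 and 1316 in KO PAMP cells and 21.2, 11.2 and 11.5 in KO mock cells, against 495, 383 and 515 in WT PAMP cells and 25.2, 5.59 and 13.5 in WT mock cells. All 3 were higher in every KO PAMP library than in any WT PAMP library, while their mock levels were low and scattered. Their differences were 1.47 ± 0.43, 1.44 ± 0.43 and 1.40 ± 0.39 (SE), with limma adjusted p-values of 0.0201, 0.0212 and 0.0122. Calls were lost for Ptgs2 and Nos2 without WT mock replicate 3, for Ptgs2 also without WT PAMP replicate 2 or KO mock replicate 2, for Nos2 also without WT PAMP replicate 3 or KO PAMP replicate 1, and for Ch25h without WT mock replicate 1 (0.93). Quantile normalization also ended the calls of Ptgs2 and Ch25h. The largest value, 2.20 for the chloride channel gene Clic5, rested on 0 to 2.52 counts in mock libraries, so it depends on the pseudocount. Its call was lost in 10 of the 12 fits that left out a library, all but those without WT mock replicate 3 or KO mock replicate 2, and at equal totals, after quantile normalization, with a pseudocount of 0.5 and by edgeR. Olfr56 (1.33) lost its call without WT mock replicate 1, WT PAMP replicate 2, KO mock replicate 2 or KO PAMP replicate 2, and Cst7 (1.10), which encodes cystatin F, in 6 of the 12 fits. Irg1, which makes the metabolite itaconate, was far more abundant and its call never failed. It had 55984, 57264 and 55330 counts in KO PAMP cells and 3953, 3840 and 4151 in KO mock cells, against 38940, 38533 and 41642 in WT PAMP cells and 5375, 4310 and 4903 in WT mock cells, a difference of 0.79 ± 0.09 (SE; limma adjusted p = 3.69e-08). Of the 18 tested genes of itaconate, nitric oxide and arginine metabolism 8 were called higher, or 5 without WT mock replicate 3 or after quantile normalization.

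Antiviral effectors made up the broadest group. Of 80 tested interferon-stimulated effector genes 50 were called higher and 0 lower, with a median difference of 0.45 against 0.02 over all genes, and 79 of the 80 had a positive value. At an unadjusted p under 0.05, 68 were higher and 0 lower, and edgeR called 64 higher and 0 lower. Leaving out WT mock replicate 1 lowered the limma count to 30 genes and the median to 0.33, equal totals the count to 32 and quantile normalization to 22. In PAMP cells 44 of the 80 were higher in KO and 1 lower (13.7% and 10.3% of all genes). In mock cells 24 were lower in KO and 1 higher (6.04% and 5.00% of all genes), and 7 were lower without WT mock replicate 1. The same gap gave 14 lower without KO mock replicate 1 and 15 without KO mock replicate 2. Cxcl10, the interferon-induced ligand of CXCR3, had 22427, 20500 and 20607 counts in KO PAMP cells and 124, 140 and 149 in KO mock cells, against 12534, 11187 and 13698 in WT PAMP cells and 258, 144 and 161 in WT mock cells. All KO PAMP libraries exceeded all WT PAMP libraries, whereas the mock ranges overlapped. The difference was 1.17 ± 0.20 (SE; limma adjusted p = 4.11e-05), and 0.92 without WT mock replicate 1, with the call kept.

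The promoters of Cxcl10 and of the RNA-sensor cofactor Ddx60 are shown because both genes, a chemokine and an RNA-sensor gene of other lists, were called higher and their 300 bases around the gene start, from RefSeq on GRCm38, hold the core of an interferon-stimulated response element (GAAA, 2 bases of any kind, GAAA, searched on both strands), set in capitals. The core occurs in 3.44% of the 32851 RefSeq promoters of the same length. Cxcl10 (chr5:92348840-92349139, minus strand) has 1 match and Ddx60 (chr8:61927837-61928136, plus strand) has 2, and each match only describes the letters.
Cxcl10: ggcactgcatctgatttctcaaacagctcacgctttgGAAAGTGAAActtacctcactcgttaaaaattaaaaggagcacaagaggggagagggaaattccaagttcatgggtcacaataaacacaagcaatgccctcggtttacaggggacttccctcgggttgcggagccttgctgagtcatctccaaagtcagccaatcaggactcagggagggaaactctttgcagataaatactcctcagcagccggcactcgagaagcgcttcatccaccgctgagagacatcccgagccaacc
Ddx60: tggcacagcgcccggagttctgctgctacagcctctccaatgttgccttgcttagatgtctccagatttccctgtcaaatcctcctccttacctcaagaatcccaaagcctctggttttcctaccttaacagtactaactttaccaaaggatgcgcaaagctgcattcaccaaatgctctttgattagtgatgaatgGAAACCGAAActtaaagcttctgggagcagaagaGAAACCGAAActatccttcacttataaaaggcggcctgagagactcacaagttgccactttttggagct

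Among the effectors, Mx1, a dynamin-like GTPase that blocks influenza viruses in strains with an intact gene, had 28438, 31014 and 31954 counts in KO PAMP cells and 1468, 1460 and 1383 in KO mock cells, against 24677, 24016 and 23659 in WT PAMP cells and 2748, 1960 and 1950 in WT mock cells. The genotypes did not overlap in either condition, KO being above WT with PAMP RNA and below it without. Its difference was 0.94 ± 0.11 (SE; limma adjusted p = 6.94e-08), and 0.78 without WT mock replicate 1, with the call kept. Rsad2, which encodes viperin, had 100994, 87861 and 93316 counts in KO PAMP cells and 439, 514 and 534 in KO mock cells, against 59468, 53850 and 64282 in WT PAMP cells and 845, 432 and 530 in WT mock cells. For this gene the genotypes separated with PAMP RNA and overlapped without it. Its difference was 0.90 ± 0.19 (SE; limma adjusted p = 0.0013), and 0.62 without WT mock replicate 1, with the call kept. Usp18, which removes ISG15 and restrains the interferon receptor, differed by 0.94 and the nucleotide kinase gene Cmpk2 by 0.92. Their lowest values in the fits that left out a library were 0.71 and 0.62, both still called. Ifit1, which binds viral RNA ends, had 39950, 37672 and 36007 counts in KO PAMP cells and 292, 326 and 357 in KO mock cells, against 30045, 25802 and 29532 in WT PAMP cells and 595, 310 and 372 in WT mock cells. The PAMP ranges were apart and WT mock replicate 1 was the highest mock library. Its call (0.75; limma adjusted p = 0.0225) was lost at equal totals, after quantile normalization and without WT mock replicate 1, WT PAMP replicate 2, KO mock replicate 1 or KO PAMP replicate 1. Isg15, the ubiquitin-like modifier, was not called (0.70; limma adjusted p = 0.0613), though edgeR on the recovered reads gave an adjusted p of 0.00164.

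Upstream of these effectors, 14 of the 43 tested genes for RNA sensors and their signalling were called higher and 3 lower, with 9 higher and 7 lower at equal totals and 7 higher after quantile normalization. The lower ones were Dhx58, the PKR activator gene Prkra (-0.59) and the mitochondrial regulator gene Nlrx1 (-0.36), the last of which lost its call in 9 of the 12 fits that left out a library. Ifih1, which encodes MDA5, had 8108, 7795 and 8318 counts in KO PAMP cells and 357, 375 and 397 in KO mock cells, against 5954, 5444 and 6233 in WT PAMP cells and 510, 385 and 420 in WT mock cells. Its KO PAMP libraries were all above the WT PAMP ones, with a difference of 0.67 ± 0.12 (SE; limma adjusted p = 6.84e-05). Tlr3, the endosomal receptor for double-stranded RNA, differed by 0.77 and the helicase gene Ddx60 by 0.94. Ddx58, which encodes RIG-I, averaged 5124 ± 68.7 counts in KO PAMP cells and 478 ± 33.1 in KO mock cells, against 4168 ± 42.5 in WT PAMP cells and 499 ± 121 in WT mock cells (SD, n = 3 each). Its difference was 0.33 (95% interval 0.07 to 0.60; limma adjusted p = 0.0952) and that of the adaptor gene Mavs -0.05 (-0.26 to 0.16; limma adjusted p = 0.818), neither past the threshold. Among genes for interferon receptors, JAKs, STATs and IRFs 11 of 24 were called higher, or 6 without WT mock replicate 1, 4 at equal totals and 2 after quantile normalization, and Ifngr1, a subunit of the interferon gamma receptor, was called lower (-0.35). The kinase gene Jak2 (0.44) kept its call in all 12 such fits. Irf7, the master regulator of interferon alpha genes, had 13834, 14423 and 13740 counts in KO PAMP cells and 142, 156 and 158 in KO mock cells, against 9518, 8995 and 9458 in WT PAMP cells and 271, 157 and 147 in WT mock cells. Its PAMP ranges did not overlap and its mock ranges did, and its call (0.86; limma adjusted p = 0.0171) was lost after quantile normalization and without WT mock replicate 1 (0.59; adjusted p = 0.111). Of the 17 tested feedback brakes on cytokine signalling, Usp18, Socs1 (0.83), Socs3 (0.41), Socs7 (0.36) and Ptpn6 (0.24) were called higher and 0 lower. The list gave 2 higher and 2 lower at equal totals and 3 higher and 1 lower after quantile normalization, and Usp18, Socs1 and Socs7 kept their calls in all 12 fits.

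For the interferon genes themselves the response could not be compared with the same precision, because mock libraries had almost no reads. Ifnb1 had 1788, 1681 and 1878 counts in KO PAMP cells and 0.846, 1.73 and 2.64 in KO mock cells, against 1387, 1211 and 1262 in WT PAMP cells and 2.52, 0 and 0 in WT mock cells. Every KO PAMP library was above every WT PAMP library. None of the 11 tested interferon genes, all of type I, was called in the difference of responses by limma or edgeR, and 1 had an unadjusted p under 0.05, with Ifnb1 at -0.32 (95% interval -1.29 to 0.64) and Ifna4 at 0.35 (-0.40 to 1.10). In PAMP cells alone 4 of the 11 were called higher in KO (13.7% of all genes were), namely Ifna5 (0.80), Ifna6 (1.22), Ifna9 (1.26) and Ifna11 (1.38). This set is given after its values were seen, and the median of the 11 was 1.02. In the uncalled ones, too, every KO PAMP library was above every WT PAMP library, as for Ifnb1 (0.47 ± 0.34, SE; limma adjusted p = 0.342). How many of all genes separate so was not counted. The fit takes 1 spread per gene over all 36 libraries, mock libraries near 0 included. Interferon alpha genes are near-identical copies, and the labels do not say how reads shared among them were counted.

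Guanylate-binding proteins and immunity-related GTPases, which attack vacuoles of intracellular pathogens and respond to IRF1, had the highest median of the lists with 15 or more tested genes. Of 28 tested genes in this group, IRF1 targets included, 15 were called higher and 0 lower, with a median of 0.62. Gbp4 had 4975, 5131 and 5098 counts in KO PAMP cells and 107, 104 and 112 in KO mock cells, against 3439, 3133 and 3361 in WT PAMP cells and 185, 150 and 138 in WT mock cells. The genotypes were apart in both conditions and in opposite directions. Its difference was 1.15 ± 0.15 (SE; limma adjusted p = 5.9e-07). Paralogues such as Gbp3, Gbp7 and Gbp9 share sequence, so reads may be split among them. Presentation on MHC class I moved likewise, with 16 of 26 genes called higher and 0 lower and a median of 0.33. Called members included the peptide transporter gene Tap1 (0.45), the transactivator gene Nlrc5 (0.58, or 0.38 without WT mock replicate 1), the tapasin-like gene Tapbpl (0.58) and the non-classical gene H2-T24 (0.63). At equal totals 8 of the 26 were higher, and after quantile normalization 5, with Nlrc5 no longer called. For MHC class II, 2 of 19 were called higher (Lgmn and March1) and 2 lower (Rfxap and Rfxank), of which Lgmn kept its call in all 12 fits that left out a library. At equal totals 0 were higher and 4 lower, and after quantile normalization 0 higher and 2 lower. The median of 0.09 turned to -0.02 and -0.03 under these scalings, against -0.09 and -0.005 over all genes.

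Some inflammatory genes were also called higher in the difference of responses, though most were not called. Tnf had 5831, 5696 and 6141 counts in KO PAMP cells and 602, 581 and 562 in KO mock cells, against 4039, 3864 and 4099 in WT PAMP cells and 670, 531 and 597 in WT mock cells. The PAMP ranges were apart and the mock ranges overlapped. Its difference was 0.59 ± 0.11 (SE; limma adjusted p = 0.000153). Of 24 tested inflammatory cytokine and receptor genes 7 were called higher and Tgfb1 lower (-0.35, lost in 6 of the 12 fits). Il6 (0.90; limma adjusted p = 0.177) and Il12b (0.46; 0.288) were not called. Among 26 chemokine and chemokine receptor genes 8 were called higher and Cxcr4 lower (-0.37, lost in 7 of the 12 fits and -0.21 without WT mock replicate 1). Ccl5 had 7010, 6834 and 6808 counts in KO PAMP cells and 882, 935 and 968 in KO mock cells, against 6584, 5448 and 6093 in WT PAMP cells and 1562, 1468 and 1493 in WT mock cells. The genotypes were apart in both conditions, and most in mock cells, where KO minus WT was -0.70. The difference of responses was 0.89 ± 0.08 (SE; limma adjusted p = 9.09e-12). Among 30 NF-kB subunit and feedback genes 13 were called higher, or 7 without KO mock replicate 2, 8 without WT mock replicate 3, 6 at equal totals and 4 after quantile normalization. Cell death effectors gave 14 higher of 31, with Mlkl (0.64), the executor of necroptosis, among them and the BH3-only gene Bcl2l11 lower (-0.32). Without WT mock replicate 1 they gave 8 higher, at equal totals 9 and after quantile normalization 6.

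Genes of dendritic cell maturation included many with a larger response in KO cells, although in both conditions more of them were called lower than higher in KO. Of 31 tested, 16 were called higher and 0 lower in the difference of responses, with a median of 0.26, or 10 higher without WT PAMP replicate 2 and 10 at equal totals. Yet in PAMP cells 6 were higher in KO and 14 lower (13.7% and 10.3% of all genes). In mock cells 0 were higher and 24 lower (5.00% and 6.04% of all genes). The median gaps were -0.17 in PAMP cells and -0.50 in mock cells. Ccr7, the receptor that guides dendritic cells to lymph nodes, had 8131, 8724 and 8755 counts in KO PAMP cells and 3173, 3169 and 3482 in KO mock cells, against 11932, 10467 and 11433 in WT PAMP cells and 5896, 5614 and 5668 in WT mock cells. KO libraries were below WT libraries in both conditions, and by more without PAMP RNA. Its difference was 0.41 ± 0.08 (SE; limma adjusted p = 0.000238). Il15ra, which presents interleukin 15 to neighbouring cells, and Tnfsf4, the OX40 ligand, differed by 0.93 and 0.76. Cd40 (0.77) lost its call after quantile normalization. The gap in mock cells did not hang on WT mock replicate 1, without which 21 of the 31 were lower. In bulk libraries fewer mature cells and less RNA per cell cannot be told apart.

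**Figure D3:**
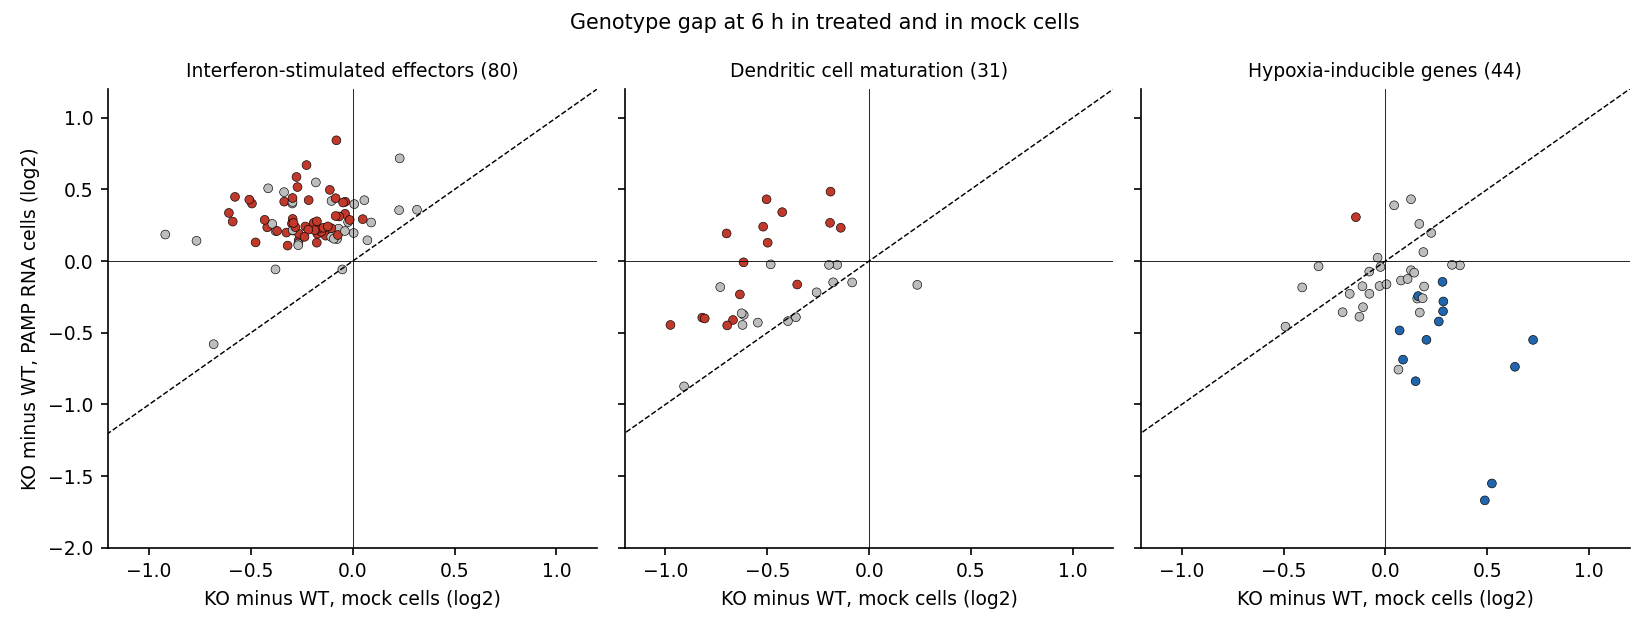
KO minus WT gap in PAMP cells (y axis, log2) against the gap in mock cells (x axis, log2) at 6 h for 80 interferon-stimulated effectors, 31 dendritic cell maturation genes and 44 hypoxia-inducible genes, with genes called higher in red, called lower in blue and not called in grey, and the line of equal gaps drawn. Median gaps in PAMP and mock cells were 0.26 and -0.20 for the effectors, -0.17 and -0.50 for the maturation genes and -0.21 and 0.13 for the hypoxia-inducible genes, and the mock gaps without WT mock replicate 1 were -0.06, -0.54 and -0.04 in the same order of lists.

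Hypoxia-inducible genes were among those with a lower difference of responses. Of 44 tested, 13 were called lower and 1 higher (Pfkp, 0.45, a phosphofructokinase), with a median of -0.23, and 24 were lower at equal totals and 20 after quantile normalization. Without WT mock replicate 1, in which these genes were low, 9 were lower and 2 higher and the median was -0.08. In PAMP cells 19 were lower in KO and 2 higher (10.3% and 13.7% of all genes). Egln3, an oxygen-sensing prolyl hydroxylase that is itself induced by HIF (chr12:54178981-54203860, minus strand), had 39.9, 37.2 and 58.2 counts in KO PAMP cells and 2128, 2257 and 2146 in KO mock cells, against 151, 134 and 113 in WT PAMP cells and 836, 1928 and 2152 in WT mock cells. All KO PAMP libraries lay below all WT PAMP libraries, and WT mock replicate 1 lay far below every other mock library. The difference was -2.07 ± 0.27 (SE; limma adjusted p = 2.98e-07), and -1.65 without that library. Zfp395, a zinc finger gene, had 17.3, 21.5 and 16.6 counts in KO PAMP cells and 422, 412 and 414 in KO mock cells, against 69.6, 72.3 and 44.0 in WT PAMP cells and 196, 364 and 363 in WT mock cells. Its ranges were apart in both conditions, with a difference of -2.16 ± 0.24 (SE; limma adjusted p = 1e-08). Ddit4, an inhibitor of mTORC1 signalling, and Ankrd37 depended on the same library. Ddit4 moved to -0.70 from -1.37 when it was left out, with the call kept, and Ankrd37 to -0.74 from -1.28 with the call lost; DESeq2 on the recovered reads called neither. Of leading genes outside this list, Ppp1r3b, a glycogen-targeting phosphatase subunit, moved to -0.55 from -1.16 without it and was not called by DESeq2 or in a fit of the 6 h libraries alone, whereas Arrdc3 (-1.15), Arhgef18 (-1.27) and Tmem150b (-1.45) kept their calls throughout the fits that left out a library.

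The promoters of Egln3 and Ankrd37 are shown because both are hypoxia-inducible genes among the 12 most negative differences, and each holds the core of a hypoxia response element (ACGTG, searched on both strands), set in capitals. This short core is common and occurs in 19.6% of RefSeq promoters of 300 bases on GRCm38. Egln3 (chr12:54203825-54204124, minus strand) has 1 match and Ankrd37 (chr8:45999801-46000100, minus strand) has 2.
Egln3: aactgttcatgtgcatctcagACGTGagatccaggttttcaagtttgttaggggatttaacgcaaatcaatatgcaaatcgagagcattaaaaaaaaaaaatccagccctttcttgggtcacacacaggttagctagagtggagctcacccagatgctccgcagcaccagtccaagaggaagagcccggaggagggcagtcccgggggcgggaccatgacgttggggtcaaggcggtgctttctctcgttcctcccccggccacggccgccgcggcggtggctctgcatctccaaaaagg
Ankrd37: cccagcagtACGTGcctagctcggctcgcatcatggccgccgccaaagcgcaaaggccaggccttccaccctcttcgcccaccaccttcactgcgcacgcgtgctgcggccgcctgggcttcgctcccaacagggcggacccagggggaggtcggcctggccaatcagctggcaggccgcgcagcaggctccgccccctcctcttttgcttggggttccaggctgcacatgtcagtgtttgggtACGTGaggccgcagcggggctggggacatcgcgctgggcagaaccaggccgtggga

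Genes for making cholesterol and fatty acids formed the other lower group, with 11 of 35 called lower and 0 higher and a median of -0.22, or 19 lower at equal totals. This group did not lean on WT mock replicate 1, without which 11 were again lower and the median was -0.18. In mock cells 16 of the 35 were higher in KO and 1 lower (5.00% and 6.04% of all genes). In PAMP cells 3 were higher in KO and 9 lower (13.7% and 10.3% of all genes). The mock count fell to 9 higher without KO mock replicate 3 or WT mock replicate 1. Scd2, a stearoyl-CoA desaturase, had 952, 999 and 958 counts in KO PAMP cells and 10260, 10523 and 10366 in KO mock cells, against 1173, 1539 and 1223 in WT PAMP cells and 6028, 8288 and 8744 in WT mock cells. KO libraries lay below WT libraries with PAMP RNA and above them without it. The difference was -0.88 ± 0.11 (SE; limma adjusted p = 1.23e-07). Sqle, the squalene epoxidase of the sterol pathway, had 278, 308 and 295 counts in KO PAMP cells and 684, 660 and 643 in KO mock cells, against 368, 381 and 430 in WT PAMP cells and 466, 565 and 542 in WT mock cells. It showed the same crossing without overlap, with a difference of -0.76 ± 0.08 (SE; limma adjusted p = 1.24e-08). The cholesterol carrier gene Stard4 (-0.71), the sterol oxidase gene Msmo1 (-0.62), the fatty acid synthase gene Fasn (-0.47), the regulator gene Insig1 (-0.41) and the synthase gene Hmgcs1 (-0.46) were also called, as was the transcription factor gene Srebf2 (-0.28), though not without WT PAMP replicate 3. Pparg, a nuclear receptor of lipid metabolism listed with LXR targets, was lower as well (-0.66 ± 0.13, SE; limma adjusted p = 0.000324).

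Other groups showed little or mixed change. Of 40 mitosis genes, Nuf2 (-0.86), Ccna2 (-0.51), Cenpf (-0.45) and Hmmr (-0.41) were called lower and 0 higher, or 7 lower without KO PAMP replicate 1 and 16 at equal totals. Of 40 DNA replication genes 5 were higher (Ccne1, Rfc2, Cdt1, Pcna and Tyms) and Pole lower, and of these Rfc2, Pcna and Pole kept their calls in all 12 fits. The list gave 2 higher and 5 lower at equal totals, where 380 of all 11853 genes tested were higher and 1249 lower. It gave 2 higher and 1 lower after quantile normalization and by edgeR. The integrated stress response split, with Ppp1r15a (0.67), Wars and Slc3a2 higher and Trib3, Sesn2 (-0.59), Eif4ebp1 and Slc7a1 lower of 32 tested. Trib3 (-0.65) lost its call in 6 of the 12 fits, Slc7a1 in 3 and Eif4ebp1 without WT mock replicate 1. The chaperone genes Hspa5 (0.40) and Pdia4 (0.33) were the called members among 29 genes of the unfolded protein response and heat shock, which gave 1 higher and 6 lower at equal totals, with Pdia4 no longer called, and 2 higher and 2 lower after quantile normalization. Immediate-early genes gave 10 higher of 43, led by Rgs1 (1.04) and the kinase gene Plk2 (0.69), and Klf2 lower (-0.60). Among phagocytic and scavenger receptors 7 of 35 were higher, or 4 after quantile normalization, with Mertk (0.59), a receptor for apoptotic cells, and Fcgr1 (0.59), the high-affinity IgG receptor, and Cd163 lower (-0.80). No gene was called among 47 oxidative phosphorylation subunits or 53 cytosolic ribosomal proteins by limma or edgeR, with 7 subunits higher and 0 lower, and 4 ribosomal genes higher and 1 lower, at an unadjusted p under 0.05, and with medians of 0.05 each that turned negative at equal totals, where 1 and 3 of them were called lower. The medians for DNA replication, integrated stress response and unfolded protein response also changed sign at equal totals. The median of all genes tested was itself -0.09 at equal totals, and each of these list medians that turned negative lay above it.

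**Figure D4:**
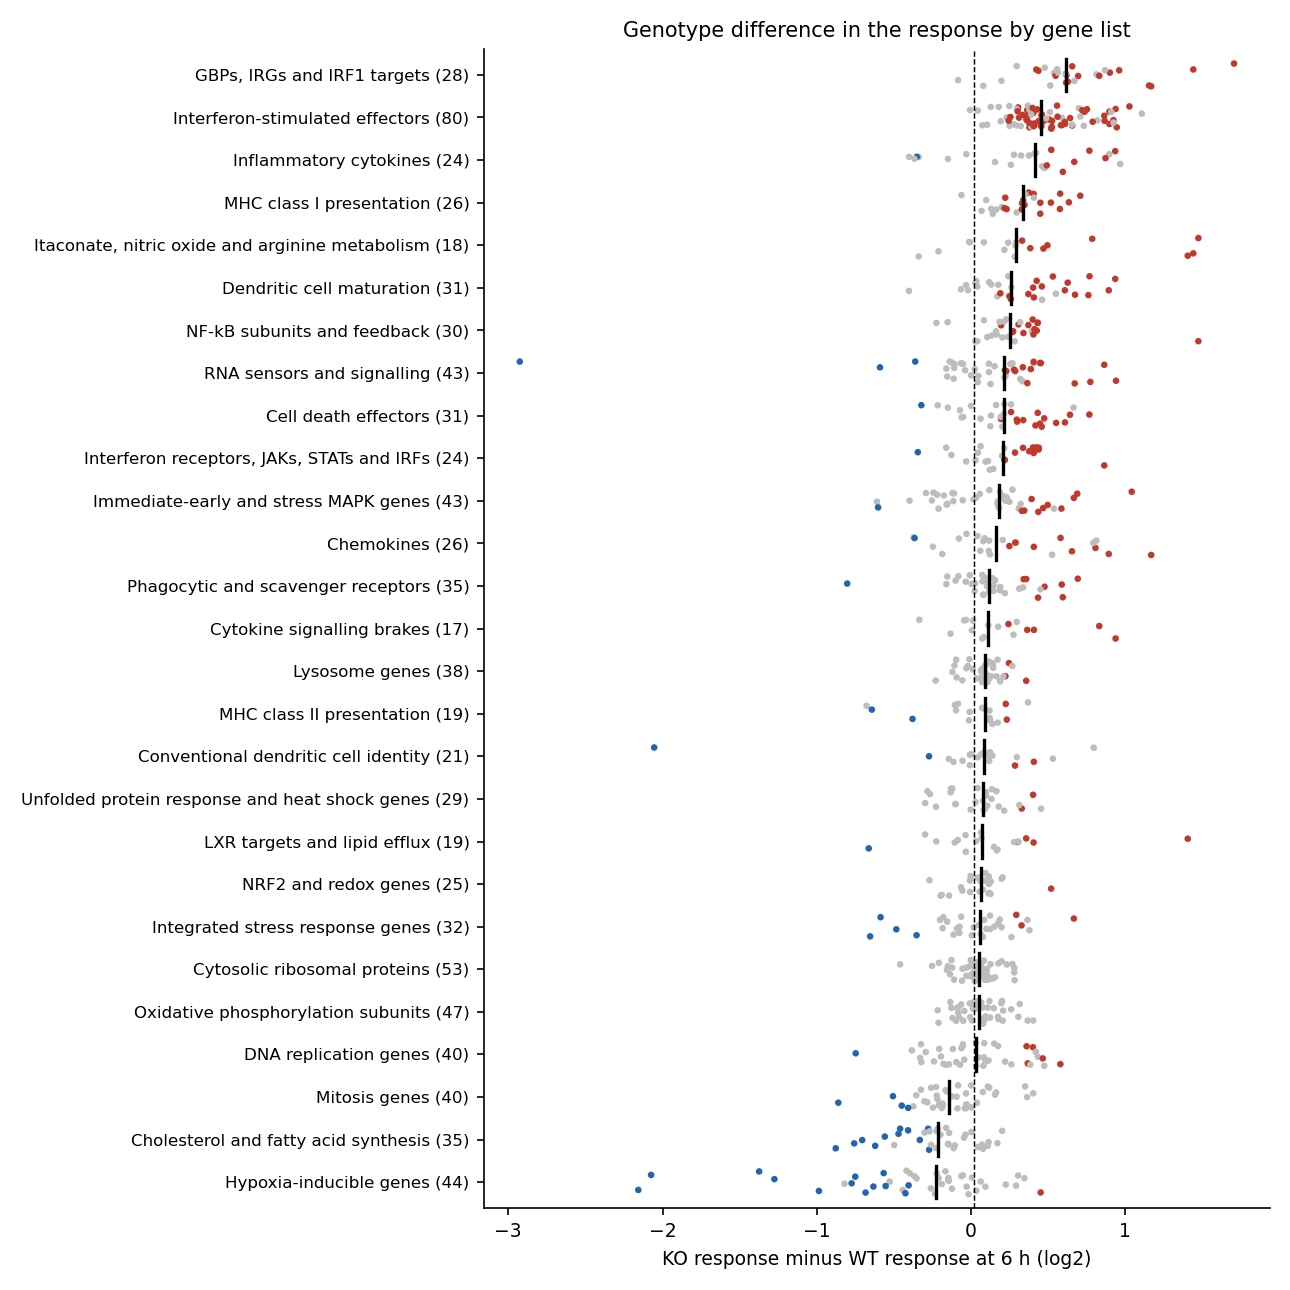
Genotype difference in the response at 6 h (x axis, log2) for each tested gene of 27 gene lists, with genes called higher in red, called lower in blue and not called in grey, a black bar at each list's median and a dashed line at the median of all genes, 0.02. Interferon-stimulated, GBP and IRG and MHC class I lists lie to the right of the dashed line, and the hypoxia-inducible and cholesterol and fatty acid lists to the left.

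Marker genes of several cell types also differed in level between the genotypes. Itgax, the gene of CD11c on which the cells were purified, averaged 2509 counts in KO PAMP cells and 2753 in KO mock cells, against 2599 in WT PAMP cells and 3017 in WT mock cells. Summed over 23 listed genes, conventional dendritic cell markers ran from 89370 to 92744 counts in KO PAMP cells and 75485 to 77067 in KO mock cells, against 99272 to 102611 in WT PAMP cells and 87547 to 91928 in WT mock cells, so every KO library was below every WT library of the same treatment. Of its 21 tested members, 2 were called higher in the difference of responses (Ccr7 and Irf8) and 2 lower (Bcl11a and Cd24a), of which Irf8 lost its call without WT PAMP replicate 2 and Bcl11a without KO PAMP replicate 3. Macrophage markers were abundant throughout, at 292344 to 307944 counts in KO PAMP cells and 274017 to 293729 in KO mock cells, against 281264 to 294896 in WT PAMP cells and 279343 to 288772 in WT mock cells. Erythroid and megakaryocyte markers, with the haemoglobin gene Hbb-bs at 0 in all groups, summed to 780 to 998 counts in KO PAMP cells and 2036 to 2069 in KO mock cells, against 1810 to 1899 in WT PAMP cells and 3295 to 4003 in WT mock cells. Of the 12 listed genes only 2, the platelet chemokine gene Ppbp among them, passed the filter of a mean count of 10. These sums thus rest on few genes. Neutrophil markers summed to 5015 to 5312 counts in KO PAMP cells and 6063 to 6221 in KO mock cells, against 5288 to 5561 in WT PAMP cells and 6544 to 6886 in WT mock cells. Plasmacytoid markers, of which Siglech and Ly6d were at 0 in PAMP cells, summed to 5252 to 5904 counts in KO PAMP cells and 1591 to 1662 in KO mock cells, against 4860 to 5491 in WT PAMP cells and 1691 to 1873 in WT mock cells. Bst2, which is also an interferon-stimulated gene of the effector list, held most of the sum in PAMP cells, at a mean of 4025 counts in KO PAMP cells and 422 in KO mock cells, against 3531 in WT PAMP cells and 477 in WT mock cells. Spib, another of these markers, averaged 165 counts in KO PAMP cells and 321 in KO mock cells, against 296 in WT PAMP cells and 360 in WT mock cells, and was called lower (-0.67). Lymphocyte, mast cell and basophil, and stromal markers summed to 239 counts or fewer in every library. The part of the cell mixture in the differences of response was not tested.

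More genes were called at later times. Counts from separate tests do not compare the sizes of the differences, and the direct test of 6 h against 3 h called 7 genes. At 1 h 14 genes were called (0.118%), 14 higher and 0 lower by limma (550 at an unadjusted p under 0.05, and 9 higher and 0 lower by edgeR), and at 3 h 372 (3.14%), 306 higher (2.58%) and 66 lower (0.557%), in separate libraries. Of the 791 genes called higher at 6 h, 202 were also called higher at 3 h (25.5% of the 6 h calls and 66.0% of the 3 h calls), and 708 (89.5%) had the same sign, against 51.4% of all genes. Of the 452 called lower, 24 were called lower at 3 h (5.31% and 36.4%), and 348 (77.0%) had the same sign, against 48.6% of all genes. No gene was called in opposite directions at 3 and 6 h. The 3 h count was 237 without WT mock replicate 2 and 240 without WT PAMP replicate 1 of that time. Serpina3g and Gbp4 had nearly their 6 h values at 3 h, whereas Cxcl10, at 0.18, and Zfp395, at -0.38, did not pass the threshold then. Tested directly, the 6 h difference departed from the 3 h difference for 7 genes (0.0591%), of which Ddx28 was higher (0.00844% of the genes tested) and Abce1, Hmgcs1, Mical3, Scd2, Sqle and Zfp395 lower (0.0506%), all chosen by that test after their values were seen. At an unadjusted p under 0.05 there were 1120 such genes.

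**Figure D5:**
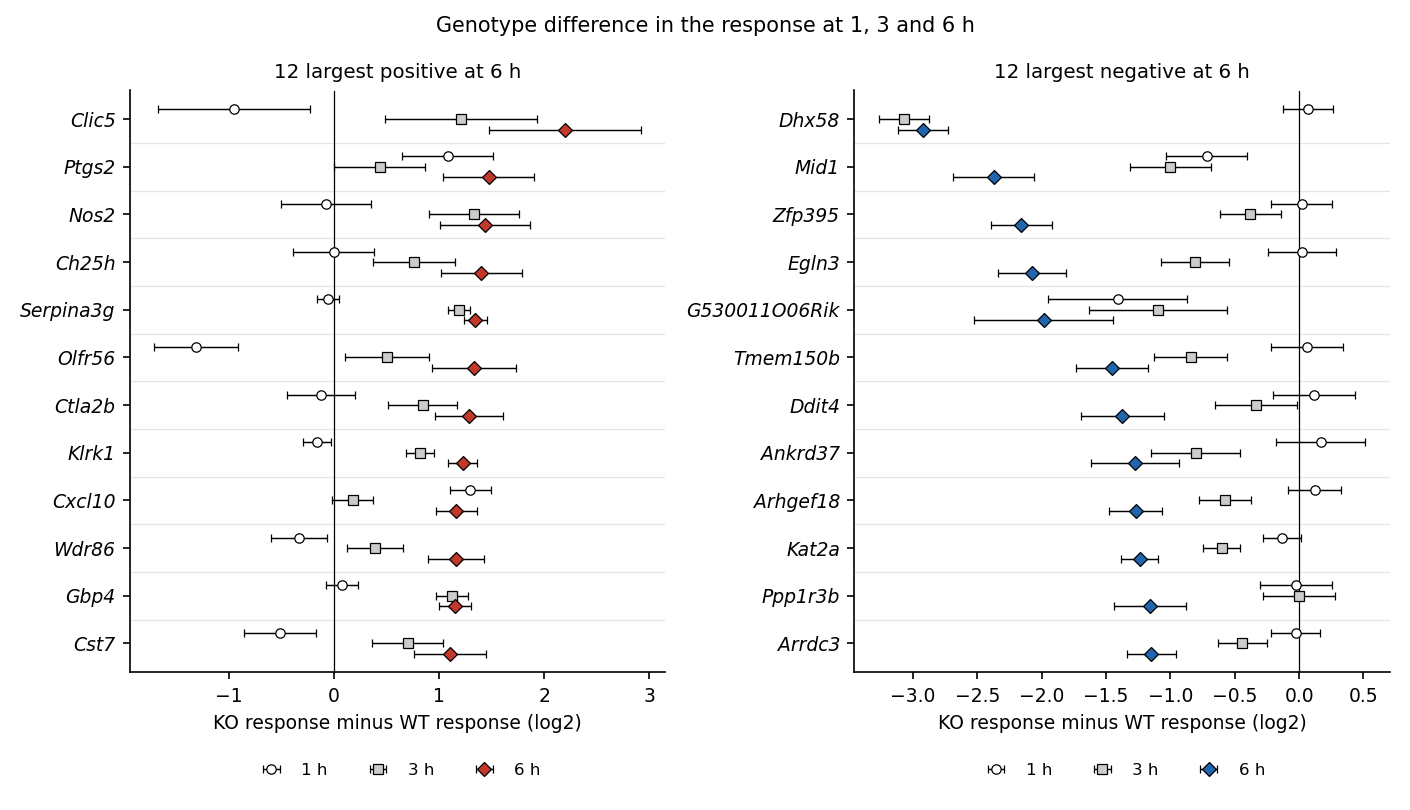
Genotype difference in the response (x axis, log2, with SE bars) at 1, 3 and 6 h for the 12 genes with the largest positive (left) and the 12 with the largest negative (right) values at 6 h. Serpina3g and Gbp4 sit near their 6 h values of 1.35 and 1.15 already at 3 h, while Zfp395 and Egln3 move from close to 0 at 1 h to -2.16 and -2.07 at 6 h.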

How the data were processed

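The deposited table holds, per the labels and the submitters' processing notes, normalized read counts per gene (a signal unit: the authors' counts divided by a size factor for each library), from mouse libraries made with a SMARTer and Nextera XT kit that does not mark strand and sequenced as single reads. The notes name TopHat, Cufflinks, DESeq2 and the builds GRCm38 and mm10, with no versions. In all 36 libraries 100% of the values were whole multiples of what 1 read is worth (tolerance 0.01), so reads were recovered for count tests. Of 24127 genes 4887 had no read, and 11853 with a mean normalized count of 10 or more were tested. The main test was limma 3.58.1 in R 4.3.3 on log2(normalized count + 1) with a mean-variance trend, over 12 group means of 36 libraries, two-sided, with Benjamini-Hochberg adjustment over all genes tested and calls at adjusted p under 0.05. Fold changes are on the log2(normalized count + 1) scale and understate the change of low genes. Alternatives were equal totals, quantile normalization, pseudocounts of 0.5 and 5, other filters on low counts, the 6 h libraries alone, edgeR 4.0.16 and DESeq2 1.42.0 on the recovered reads, a replicate block and leaving out each library in turn. The scripts were tested on simulated data.

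The text names Dhx58 and its neighbour Kat2a, the 12 genes with the largest called difference in each direction (mean of 50 or more at 6 h), up to 4 called members of each gene list and a fixed panel of interferon and cytokine genes. Genes beyond this were chosen after their values were seen. The comparison, the members and the gene lists were chosen with earlier results of these data known. Replicates of a group differed by more than sampling noise (chi-square per degree of freedom 1.4 to 3.92 between libraries of a group at 6 h). Gene spans were taken from GENCODE and promoters from RefSeq, both on GRCm38. Promoter shares of called genes were not compared because fewer than 80% had an entry (618 of the 791 higher and 347 of the 452 lower). Some items of the lists are not reported here.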

Additional observations from a re-analysis of the deposited data

Results flagged for a closer look

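The response to PAMP RNA at 6 h differed between KO and WT cells for 1243 genes by the test of the difference itself (limma, Benjamini-Hochberg adjusted p under 0.05), of 2789 with an unadjusted p under 0.05. For 7 genes the genotype difference at 6 h also departed from that at 3 h. The change in the difference, 6 h minus 3 h on the log2 scale, was -1.78 for Zfp395, -0.9 for Mical3, -0.86 for Scd2, -0.64 for Sqle, -0.56 for Abce1, -0.53 for Hmgcs1 and 0.8 for Ddx28. Scd2, Sqle and Hmgcs1 belong to lipid and sterol synthesis, and at 3 h their differences were -0.02, -0.11 and 0.07, none called. Ddx28, a mitochondrial helicase gene, was called lower at 3 h (-0.53; limma adjusted p = 0.0024) and not called at 6 h (0.28; limma adjusted p = 0.106).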

How the results depend on the processing

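The count of genes called higher at 6 h, 791, became 380 at equal totals and 381 after quantile normalization, and the count called lower, 452, became 1249 at equal totals, 277 with the 6 h libraries alone and 287 with DESeq2. Calls shared with the main ones were 380 higher and 452 lower at equal totals, 372 and 361 after quantile normalization, 758 and 313 by edgeR and 718 and 282 by DESeq2, and no gene was called in the opposite direction. The 3 h count of 372 became 242 after quantile normalization, the 1 h count of 14 became 9 by edgeR, and the 7 genes whose difference changed between 3 and 6 h became 13 with the replicate block, 4 by edgeR and 16 by DESeq2. Causes were not tested. Leaving out 1 library at a time gave 920 to 1210 calls for the 6 h difference (614 to 761 higher and 306 to 454 lower), 8070 to 8211 for the KO response, 7220 to 7517 for the WT response, 2329 to 2575 for the gap in PAMP cells, 855 to 1108 for that in mock cells (855 without KO mock replicate 2), 237 to 417 at 3 h, 12 to 19 at 1 h and 2 to 30 for 6 h minus 3 h (2 without WT PAMP replicate 2 of 6 h, 30 without KO mock replicate 2 of 3 h). With the replicate block 1263 genes were called at 6 h. Deviations of same-numbered libraries correlated at -0.114 to 0.183, and 12 of 36 libraries were closest to their own number. These values showed no pairing by replicate number, though with 3 libraries a group they cannot establish its absence. For the 111 named genes over all settings no value changed sign, 2347 kept their side of the threshold, 190 lost a call and 10 gained one. With 3 libraries a group and few reads in mock cells, differences of interferon genes were not measurable to better than about 1 log2 unit.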
